A study of Mus musculus with 32 samples.

Results

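The cytosolic ribosomal protein genes of the mouse were described in monocytes before transfer and in the macrophages that these monocytes gave rise to in colon and ileum. Genes were taken by symbol, as those named Rpl or Rps followed by a number and at most 1 letter, together with Rplp0, Rplp1, Rplp2 and Rpsa. This gave 82 genes of the 24411 in the table of the transfer into CD11c-DTR recipients, and the same 82 of the 24421 genes in the table of the transfer into CX3CR1-DTR recipients. Of these, 50 encode proteins of the large subunit, among them the 3 stalk proteins, and 32 encode proteins of the small subunit.

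In the study, monocytes were injected into mice whose own intestinal macrophages had been depleted, so that the replacement of these cells could be followed from a known starting day. All mice were of strain C57BL/6J. The graft comprised 3 libraries. It consisted of CD117- CD11b+ CD115+ Ly6C+ GFPint bone marrow monocytes of Cx3cr1 GFP/+ donors according to the study's methods. Its labels differ from this, with Blood as organ, the recipients' genotype and a selection for CD45+ CD11b+ CD115+ Ly6C+/- cells. CD11c-DTR recipients were irradiated animals reconstituted with bone marrow that carried the diphtheria toxin receptor under the Itgax (CD11c) promoter, and diphtheria toxin was given to them before the transfer and every other day after it. From these recipients macrophages were sorted on days 4, 8 and 12, from colon (3, 3 and 4 libraries) and from ileum (4 on each day). The labels give the sort as DAPI- CD45+ CD11b+ CD64+ Ly6C- MHCII+, and the study describes selection of donor cells by the marker CD45.1 and by GFP. For the CX3CR1-DTR transfer 6 libraries were made from colon on day 14, in recipients labelled Cx3cr1-DTR, in which the receptor stands under the Cx3cr1 promoter and the same toxin was given. The study describes these recipients, too, as irradiated wild-type mice reconstituted with bone marrow that carried the receptor. The labels of these libraries give the same selection markers and their titles add that cells were GFP+ only. All 6 were used, although the sample list of the study has fewer for this transfer. Toxin removes only cells that carry the receptor, so host cells without it remained in both kinds of recipient. Replicate 1 of colon day 8, a 4th library of that group, was left out. The dates in the labels place the libraries of the CD11c-DTR transfer in 3 experiments, each with 1 graft library. Recipients were young adults when they received bone marrow, ages of donors are not given in the sources used here, and the labels do not say whether libraries of a group came from separate animals, so that p-values measure the spread between libraries, which may be technical in part.

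The ribosome is built of a large and a small subunit, each a scaffold of ribosomal RNA to which ribosomal proteins bind, mostly in a single copy. Stalk proteins extend from the large subunit and recruit the elongation factors. In vertebrates the mRNAs of ribosomal proteins begin with a run of pyrimidines, the 5′ terminal oligopyrimidine (TOP) tract, through which mTOR and the RNA-binding protein Larp1 regulate their translation, and the genes have many processed copies scattered through the genome. Growing and dividing cells make ribosomes at a high rate, and bone marrow monocytes are close descendants of dividing progenitors.

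The starts of some genes named below are shown first, because mRNAs of ribosomal proteins are known to begin with a TOP tract. All genes shown have a run of at least 8 bases of C or T, which most members lack. Of other genes named below, Rpl7, Rps23, Rplp1 and Rpl5 have longest runs of 5, 6, 7 and 4 bases. Each window is 30 bases of build mm9, 15 before the listed transcript start and 15 from it, written 5′ to 3′ on the strand of the gene, with the longest run of C and T in capitals. Rpl39 lies on the minus strand at chrX:34625203-34625232, Rpl30 on the minus strand at chr15:34372966-34372995, Rpl29 on the plus strand at chr9:106331855-106331884, Rps20 on the minus strand at chr4:3762733-3762762, Rps27l on the plus strand at chr9:66793868-66793897 and Rpl28 on the plus strand at chr7:4744552-4744581.
Rpl39: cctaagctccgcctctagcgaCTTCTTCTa
Rpl30: gcattgtgggagCTCCTTCCTTTCTCgctc
Rpl29: gggCCTTTCTCTTTCTCTTCCggtctccgg
Rps20: cgccgtccggCCCCTCCTTTCTgagccccg
Rps27l: ccaCTCCTCTCCactcctccccgccgcctc
Rpl28: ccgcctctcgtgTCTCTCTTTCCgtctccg
Runs differed in length among the genes shown, from 8 bases in Rpl39 to 18 in Rpl29. The run of Rps27l ended before the listed start and that of Rpl39 began after it.

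Over all members, 33 of 82 (40.2%) had a run of at least 8 bases of C or T inside this window, as against 2752 of 24343 listed genes (11.3%). On the other strand, which is to say as a run of at least 8 bases of A or G, the same search found 3 of 82 members (3.66%) and 3141 of 24343 genes (12.9%). The shares were 42% of the 50 large subunit genes and 37.5% of the 32 small subunit genes. A run in this window is a match of letters at the transcript start given in the table, and starts that are listed a few bases away from those used in these cells would move it.

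Expression was measured as reads per gene from the 3′ ends of poly(A) RNA. Levels are given as normalized reads, meaning reads of a gene per 10000000 reads on genes in the same library, and differences as log2 fold changes with their standard error (SE). Total reads on genes were 591817 to 5228664 per library in the CD11c-DTR transfer and 1223772 to 4218027 in the CX3CR1-DTR transfer, so that a count of 3 reads, the least taken as detection, corresponded to 5.74 to 50.7 normalized reads in the CD11c-DTR transfer, for counting error only. A list of 10 macrophage markers summed to 13757 to 17028 normalized reads in the graft, 6412 to 38465 in colon and 17380 to 175309 in ileum, but the libraries from gut also held much RNA of other cells. A list of 13 markers of intestinal epithelium, 3 of which had no read in any graft library, summed to 55.0 to 85.8 in the graft, to 195545 to 296263 in colon, to 35400 to 255180 in ileum and to 229207 to 279246 in the CX3CR1-DTR transfer. A list of 8 pan-leukocyte genes summed to 118540 to 131300 in the graft, but to 2717 to 11201 in colon and 7851 to 53213 in ileum. The library left out of colon day 8 lay outside these 3 ranges of colon. It summed to 140851 on the macrophage list, 141368 on the epithelial list and 32762 on the pan-leukocyte list. In the CX3CR1-DTR transfer the macrophage list summed to 11632 to 25871 and the pan-leukocyte list to 1952 to 6284. A list of 6 B and plasma cell genes summed to 347 to 384 in the graft, 972 to 14662 in colon and 6117 to 288715 in ileum, and one of 8 goblet and Paneth cell genes to 30001 to 46987, 37019 to 94653 and 51401 to 282692. In the CX3CR1-DTR transfer these lists summed to 299 to 466 and to 86823 to 102870. The goblet and Paneth list thus had many reads in the sorted monocytes too, so that its sums are not specific to those cells. The part that RNA of other cells has in the results on ribosomal protein genes was not tested. In RNA of bulk samples, fewer cells of a type and less RNA per cell cannot be told apart.

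Of the 82, 79 had at least 50 reads per 10000000 mapped reads in at least 3 libraries and entered the tests (44 large subunit genes, the 3 stalk genes and 32 small subunit genes). The other three were paralogs of other members. Rpl10l had no read in any of 32 libraries, Rpl39l stayed at or below 8.87 normalized reads, and Rpl3l, which is known from striated muscle, reached 22.5 in the library with the most. A mean over 1000 normalized reads was found for 78 members and over 10000 for 26.

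Together the members took up a larger share of reads on genes in most colonic libraries than in the graft. In the graft 6.57%, 6.13% and 7.20% of reads on genes fell on the 82 members. The share was 7.66%, 9.05% and 8.31% in colon on day 4, 8.24%, 8.06% and 8.54% on day 8, and 7.93%, 7.10%, 10.09% and 10.35% on day 12. All colonic libraries but 1 of day 12 thus lay above the 3 graft libraries. Taken as a percent of mapped reads, this separation was weaker, with the graft at 4.3247% to 4.95%. Colon of day 4, at 4.80% to 5.24%, then overlapped with the graft, and 1 library of day 12, at 4.18%, lay below it. Colon of day 8, at 5.23% to 5.33%, and the remaining libraries of day 12 stayed above the graft.

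In ileum the shares on day 4, at 6.65%, 6.99%, 6.19% and 6.61%, lay within the range of the graft, and on day 12 they were 6.07%, 6.06%, 8.14% and 6.08%. This depended on the denominator. As a percent of mapped reads instead of reads on genes, the ileal libraries of day 4 (3.13% to 4.13%) and of day 12 (3.038% to 4.3223%) all lay below those of the graft (4.3247% to 4.95%). Ileal libraries of day 8 fell into a low and a high pair, at 6.33% and 6.69% against 9.63% and 9.49%. Each pair holds 1 library of experiment 2 and 1 of experiment 3. Over groups, the means were 6.63% ± 0.54 in the graft (SD, n = 3), 8.34% ± 0.69, 8.28% ± 0.25 and 8.87% ± 1.6 in colon of days 4, 8 and 12 (n = 3, 3 and 4), and 6.61% ± 0.33, 8.03% ± 1.77 and 6.59% ± 1.04 in ileum (n = 4 each). The CX3CR1-DTR transfer gave 6.83% ± 0.84 (n = 6). These shares are a sum over a chosen list and carry no test.

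Large subunit genes took up more reads than small subunit genes in every group, and the mean ratio of large to small was lowest in the graft. The large subunit accounted for 3.86% ± 0.31 and the small subunit for 2.78% ± 0.24 of reads in the graft (SD, n = 3), and for 5.27% ± 0.90 and 3.59% ± 0.70 in colon of day 12 (n = 4). The ratio of large to small was 1.39 ± 0.05 in the graft and 1.45 to 1.51 as a mean of each gut group of the CD11c-DTR transfer. It was 1.58 ± 0.12 in the CX3CR1-DTR transfer. On day 4 the libraries of colon (1.47 to 1.53) and of ileum (1.47 to 1.53) all lay above those of the graft (1.34 to 1.43). In each group of later days, the CX3CR1-DTR transfer included, the lowest library (1.37 to 1.42) lay within the range of the graft.

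**Figure D1:**
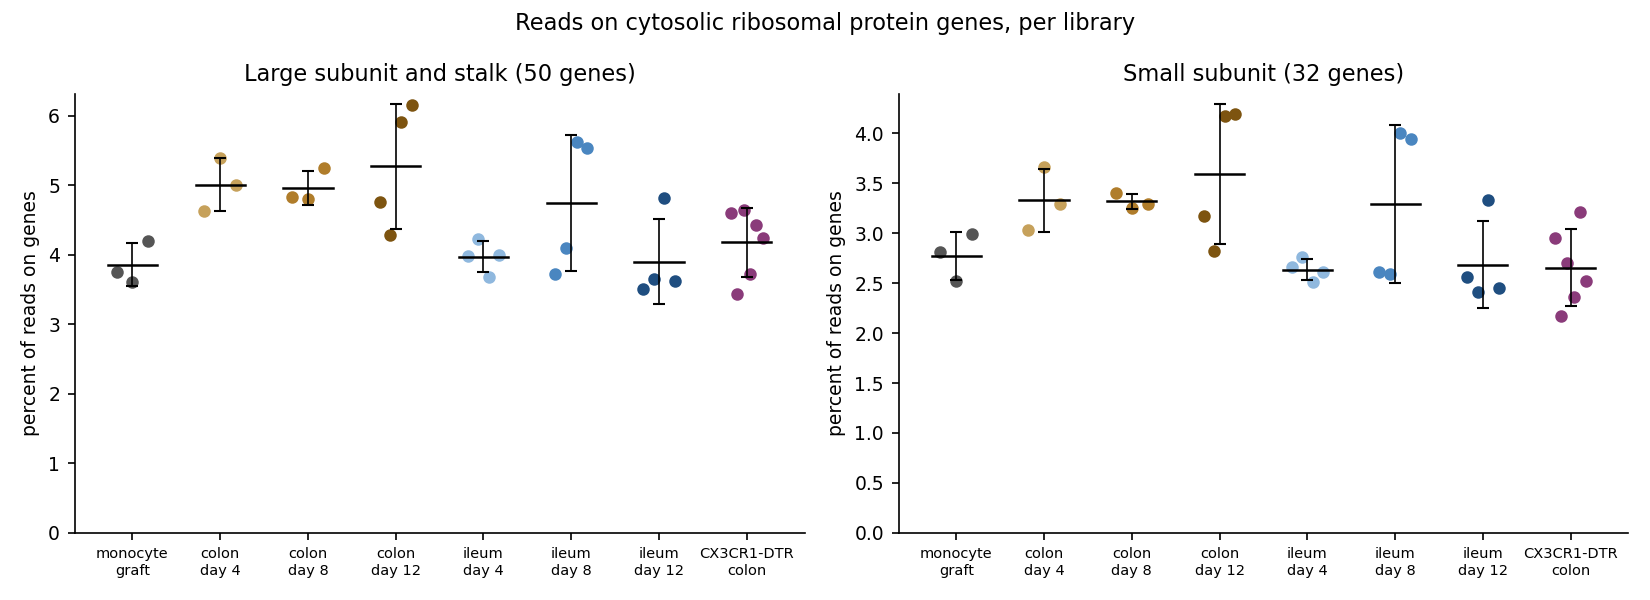
Percent of reads on genes that fell on large subunit genes (stalk included) and on small subunit genes, 1 point per library in each of 8 groups, with the group mean and SD. Both subunits show the means of colon above that of the graft, ileum of days 4 and 12 overlapping with the graft, and a wide spread in ileum of day 8.

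Single genes were compared with edgeR's quasi-likelihood test, with p-values adjusted after Benjamini and Hochberg over all 11842 genes tested, and a gene was called at an adjusted p under 0.05. In colon of day 4, 31 of 79 members (39.2%) were higher than in the graft and none was lower. Over all genes tested, 4252 (35.9%) were called higher and 2897 (24.5%) lower in this comparison, so that the share of members called higher was near the background while calls of lower expression were absent. The median log2 fold change was 0.52 over members and 0.21 over all genes, and 78 of 79 members had a value above 0. The fits were scaled by edgeR's TMM. Scaling to library totals moved the median of all genes from 0.21 to 0.06 in colon of day 4, from 0.24 to 0.11 on day 12 and from 0.22 to 0.07 in ileum of day 12, and members called higher were then 23, 33 and 8, with 1 lower in ileum.

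In colon of day 12, 45 members (57.0%) were higher than in the graft and 0 lower, against 4463 genes (37.7%) higher and 2952 (24.9%) lower in all. The median of members was 0.61 and that of all genes 0.24. Comparisons of colon and ileum with the graft share its 3 libraries, so that they are not independent of each other.

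In ileum far fewer members passed. On day 4, 10 of 79 (12.7%) were higher than in the graft and 0 lower, where 36.2% of all genes were called higher and 20.5% lower, and the median was 0.11 for members and 0.23 for all genes. On day 12 the count was 12 (15.2%) higher and 0 lower, against 35.9% and 20% of all genes, with medians of 0.25 and 0.22. In none of these 4 comparisons was a member lower at an unadjusted p under 0.05 by edgeR, none was called lower by DESeq2, and limma called 2 lower in ileum of day 12. In ileum the share of members called was thus below the background in both directions on both days, with 49 and 54 of 79 members above 0.

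Counts of calls depended on single libraries and on the experiment. Without the second replicate of colon day 4, 17 members were called in colon of day 4, and without either of the first 2 graft libraries 19. On day 12, 25 were called without graft replicate 1, 27 without graft replicate 2 and 29 without replicate 3 or replicate 4 of colon. In ileum of day 4, 4 remained past the threshold without graft replicate 2 and 5 without graft replicate 1 or ileum replicate 2, and on day 12, 5 without graft replicate 2, 6 without graft replicate 1 and 7 without ileum replicate 3. Within experiment 2 alone, which leaves a single graft library that is assumed to vary like the others, medians of members were 0.39 and 0.64 in colon of days 4 and 12 with 2 and 7 called, and 0.06 and 0.34 in ileum with 1 and 2 called. Within experiment 3 each of these comparisons is of 1 library with 1, so that few calls say little, and the medians were 0.91 and 1.07 in colon, with 1 and 3 called, and 0.23 in ileum of day 12 with none called. Medians over members were thus above 0 in the 4 comparisons of experiment 2 and the 3 of experiment 3. With all experiments together, the medians of all genes were themselves 0.21 to 0.24 in these comparisons. Those of all genes within a single experiment are not reported here, so values above 0 are not particular to members.

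**Figure D2:**
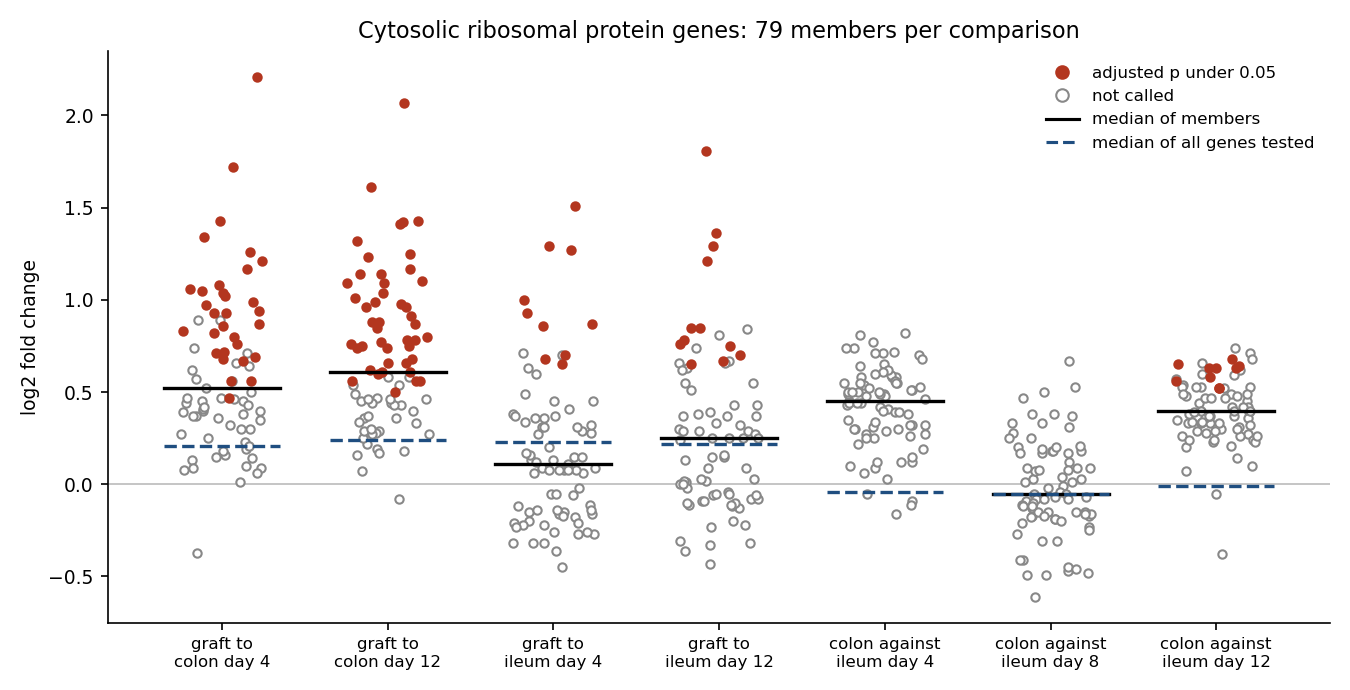
Log2 fold changes of the 79 tested members, 1 point per gene, for colon and ileum of days 4 and 12 against the graft and for colon against ileum on days 4, 8 and 12. Filled points passed an adjusted p of 0.05, the black line is the median of members and the dashed line that of all genes tested; in colon the black line lies above the dashed one on both days, and in ileum they lie close together.

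Among large subunit genes, Rpl39 showed the largest difference from the graft of all members in colon and ileum of days 4 and 12. Rpl39 encodes a very short protein that lines the exit tunnel of the ribosome. It stood at 1405, 866 and 1472 normalized reads in the graft. In colon of day 4 it stood at 3876, 6542 and 5085, and in colon of day 12 at 1963, 4926, 5616 and 6380. In ileum the values were 3857, 3862, 1791 and 4352 on day 4 and 3392, 3889, 4589 and 3983 on day 12. Every library of these 4 groups was above every graft library.

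The log2 fold change of Rpl39 was 2.21 (SE 0.48, adjusted p = 0.000401) in colon of day 4, a 4.64-fold difference, and 2.07 (SE 0.46, adjusted p = 0.000475) on day 12. In ileum it was 1.51 (SE 0.45, adjusted p = 0.00653) and 1.81 (SE 0.46, adjusted p = 0.00173). On day 8 its libraries spread more widely, from 1791 to 5619 in colon and from 764 to 3937 in ileum, where the lowest library was below the graft. The library left out of colon day 8 was at 629.6, below every graft library. Rpl39 was past the threshold in colon of day 4 under all 34 alternative fits, and within experiment 2 alone at 1.82 (SE 0.35, adjusted p = 0.00289).

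Rpl30, whose protein also binds selenocysteine insertion elements in mRNAs, was the next of the large subunit genes in ileum. Its normalized reads were 699, 453 and 616 in the graft, 1669, 1675, 811 and 1380 in ileum of day 4 and 1291, 1658, 1411 and 1059 in ileum of day 12. Ileal libraries of both days lay above the graft, with log2 fold changes of 1.29 (SE 0.36, adjusted p = 0.00399) and 1.36 (SE 0.36, adjusted p = 0.00272). In colon 1 library of each day, at 622 on day 4 and 587 on day 12, lay among those of the graft, while the remaining ones were between 1463 and 1871. The fold changes there were 1.21 (SE 0.38, adjusted p = 0.00825) and 1.43 (SE 0.36, adjusted p = 0.0015).

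Rpl29, a gene of the large subunit whose protein also binds heparin, differed in colon. From 3223, 3644 and 3715 normalized reads in the graft it went to 6970, 8351 and 8725 in colon of day 4, with a log2 fold change of 1.34 (SE 0.35, adjusted p = 0.00191), and the value on day 12 was 1.41 (SE 0.33, adjusted p = 0.00073). In ileum its fold changes of 0.60 (SE 0.32, adjusted p = 0.119) and 0.74 (SE 0.32, adjusted p = 0.0561) did not pass, although all ileal libraries of both days were above the graft.

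Of the 44 large subunit genes, 21 were higher than in the graft in colon of day 4 and 27 on day 12 (47.7% and 61.4%, beside 35.9% and 37.7% of all genes), and 6 and 7 in ileum, beside 36.2% and 35.9% of all genes. Their median fold changes were 0.59 and 0.63 in colon and 0.14 and 0.26 in ileum. Rpl5, singled out after its values were seen, was higher in all 4 comparisons. Its log2 fold changes were 1.08 and 1.14 in colon of days 4 and 12 and 0.86 and 0.78 in ileum of these days. Adjusted p-values ran from 0.000273 to 0.00826. With Rpl11 and the 5S RNA it forms the particle that inhibits Mdm2. Rpl11 passed in none of the 4, at 0.13 and 0.22 in colon and −0.32 and −0.31 in ileum. Rpl10, one of the last proteins to join the large subunit, was at 0.68 (SE 0.23, adjusted p = 0.0125) and 0.56 (SE 0.21, adjusted p = 0.0273) in colon, and at 0.13 and 0.29 in ileum, where it did not pass. Rpl22, which binds a number of cellular and viral RNAs, gave 0.19, 0.29, 0.09 and −0.04 and passed in none. The lowest value in colon was that of Rpl27, at −0.37 on day 4 (SE 0.30, adjusted p = 0.287).

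The fold changes of the 3 stalk genes differed in size, and differences between these genes were not tested. Rplp1 was at 21496, 22675 and 29099 normalized reads in the graft and at 36858, 47169 and 51506 in colon of day 4, with no overlap, and its log2 fold change was 1.04 (SE 0.32, adjusted p = 0.00707). On day 12 it was 1.04 in colon (SE 0.30, adjusted p = 0.00465) and 0.75 in ileum (SE 0.30, adjusted p = 0.0367), and on day 4 in ileum 0.70 (SE 0.30, adjusted p = 0.0512), which did not pass. Its partner in the stalk dimer, Rplp2, averaged 12707 ± 1483 in the graft (SD, n = 3) and 11167 to 14043 in the 6 gut groups, with fold changes of 0.18, 0.19, 0.06 and −0.05.

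Rplp0, the protein that anchors both to the ribosome, averaged 22120 ± 1296 in the graft (SD, n = 3), 24386 to 25085 in colon and 15581 to 20722 in ileum. Its fold changes were 0.30 and 0.28 in colon and −0.21 and −0.36 in ileum, and none passed. Of the 32-base words in the last 300 bases of the Rplp2 transcript, 92.9% also occur elsewhere in the genome, so that its reads can be lost or assigned to a copy. The copy Rplp2-ps1 was at 31056 ± 2280 in the graft (SD, n = 3), with nearly the same reads as those listed for Wdr89, and its fold change in colon of day 4 was 0.11 (SE 0.31, adjusted p = 0.766).

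Small subunit genes were called at 9 and 17 of 32 in colon of days 4 and 12 and at 4 of 32 in ileum on both days. In colon these were 28.1% and 53.1%, beside the 35.9% and 37.7% of all genes given above, and in ileum they were below the 36.2% and 35.9% of all genes. Small subunit genes had medians of 0.46 and 0.60 in colon and 0.08 and 0.25 in ileum. Rps20, the gene for a protein of the head of the small subunit, was at 4637, 4493 and 6152 normalized reads in the graft. It was at 8568, 15282 and 13023 in colon of day 4, at 7392, 9166, 16821 and 15770 in colon of day 12 and between 7784 and 12999 in ileum of days 4 and 12. None of these libraries overlapped with the graft. The log2 fold changes were 1.43 (SE 0.33, adjusted p = 0.000761) and 1.42 (SE 0.32, adjusted p = 0.00049) in colon, and 0.93 (SE 0.31, adjusted p = 0.0144) and 1.21 (SE 0.32, adjusted p = 0.00223) in ileum.

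Rps26, whose protein contacts the mRNA upstream of the start codon, was higher in colon at 1.26 (SE 0.27, adjusted p = 0.000395) and 1.32 (SE 0.26, adjusted p = 0.000136), and in ileum of day 12 at 0.67 (SE 0.26, adjusted p = 0.0303). In ileum of day 4 it was at 0.49 (SE 0.26, adjusted p = 0.109). Rps6, the substrate of the S6 kinases downstream of mTOR, was at 0.47 (SE 0.20, adjusted p = 0.0467) and 0.56 (SE 0.19, adjusted p = 0.0139) in colon and at 0.08 and 0.16 in ileum, where it did not pass. Rpsa, also known as the laminin receptor, averaged 11263 ± 1634 in the graft (SD, n = 3) and 9789 to 14289 in the gut groups. Its fold changes of 0.21, 0.17, 0.08 and −0.06 passed in no comparison.

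**Figure D3:**
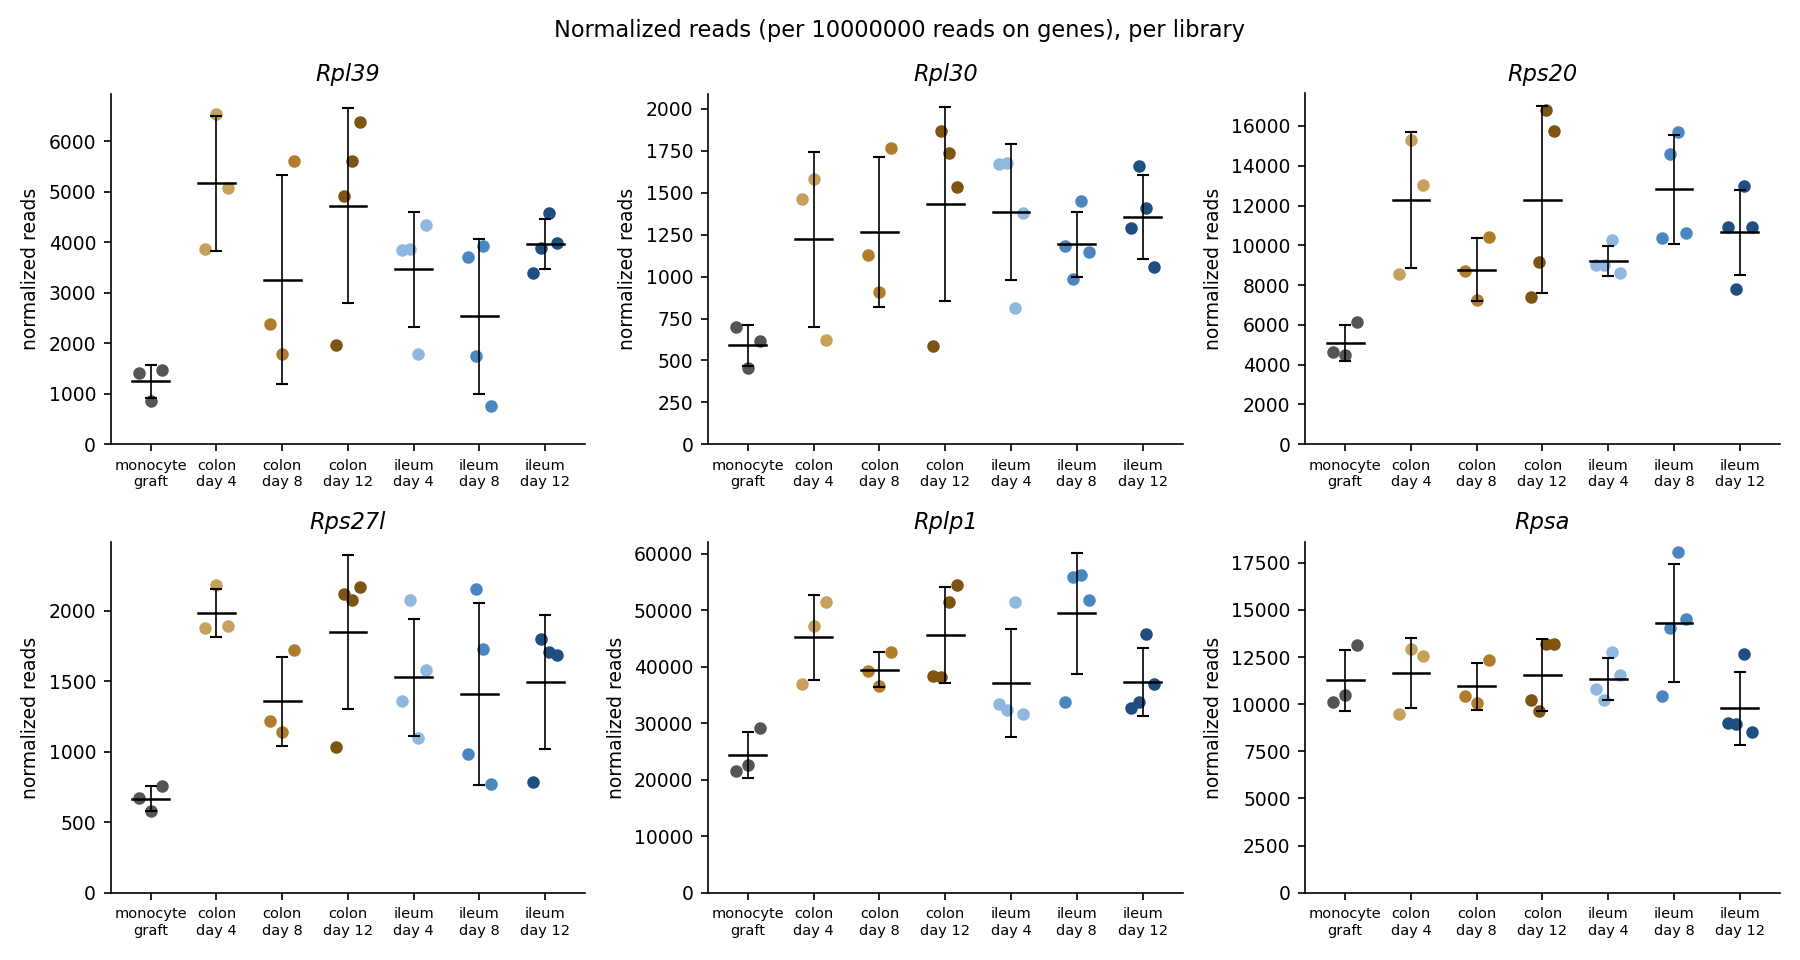
Normalized reads (reads of a gene per 10000000 reads on genes) of Rpl39, Rpl30, Rps20, Rps27l, Rplp1 and Rpsa, 1 point per library in the 7 groups of the CD11c-DTR transfer, with the mean and SD. For the first 5 genes nearly all colonic and ileal libraries lie above the 3 graft libraries, while for Rpsa the groups overlap.

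Paralogs were set beside the members that they resemble. Rps27l, a p53-induced paralog of Rps27, was at 670, 577 and 757 normalized reads in the graft, 1881, 2182 and 1893 in colon of day 4 and 1032, 2120, 2078 and 2169 in colon of day 12. Its log2 fold change was 1.72 (SE 0.35, adjusted p = 0.000213) on day 4 and 1.61 (SE 0.34, adjusted p = 0.00025) on day 12. In ileum it was 1.27 (SE 0.34, adjusted p = 0.00261) and 1.29 (SE 0.34, adjusted p = 0.00227), and every library of these 4 groups was above the graft.

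Rps27 itself gave 0.42 (SE 0.49, adjusted p = 0.474) in colon of day 4 and −0.26 (SE 0.46, adjusted p = 0.651) in ileum of day 4. Its levels in ileum included 2 low libraries, at 1386 on day 4 and 1216 on day 8, where the lowest of the other ileal libraries of any day was at 5219. The last 300 bases of Rps27 occur whole elsewhere in the genome, and its near copy Rps27rt had much the same reads, with 6243 ± 1090 in the graft (SD, n = 3) as against 6261 ± 1086 for Rps27.

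Rpl32l was higher in colon at 1.02 (SE 0.34, adjusted p = 0.0123) on day 4 and 0.99 (SE 0.32, adjusted p = 0.00979) on day 12, while Rpl32 was at 0.30 (SE 0.32, adjusted p = 0.427) and 0.40. Rps4x, the X-linked gene, was higher in colon at 0.69 (SE 0.29, adjusted p = 0.0447) and 0.88 (SE 0.28, adjusted p = 0.00842). Its copy Rps4l, with 166 ± 16.0 normalized reads in the graft (SD, n = 3), gave 0.89 (SE 0.70, adjusted p = 0.278) and 0.46. Differences between a paralog and its partner were not tested, and reads of such pairs can be split between them.

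**Figure D4:**
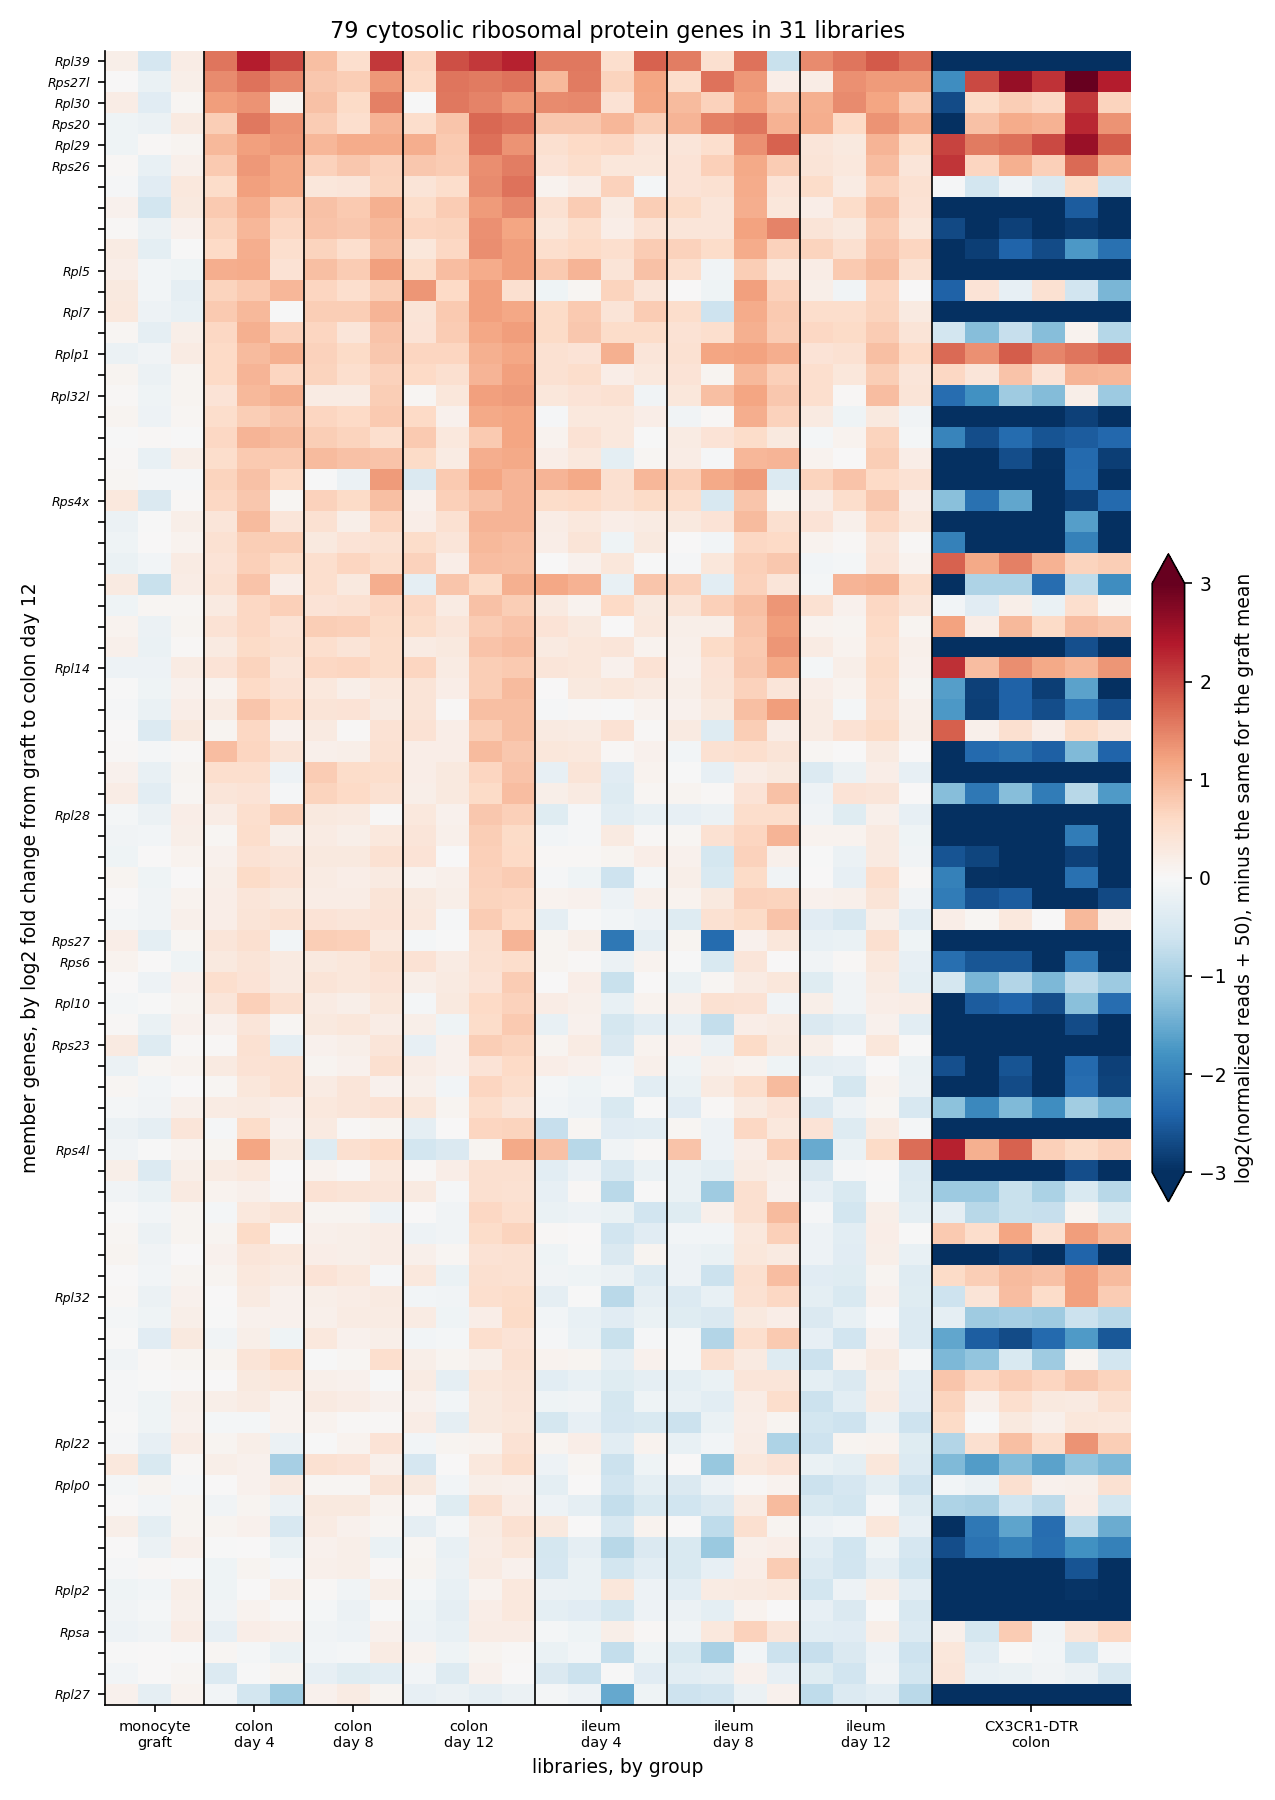
The 79 tested members (rows, with names for some, ordered by their log2 fold change from the graft to colon of day 12) in 31 libraries (columns, by group), coloured by log2(normalized reads + 50) minus the mean of the graft. Most rows are above the graft in colon, whereas libraries of the CX3CR1-DTR transfer combine rows far above and far below it.

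Between time points no member passed. From day 4 to day 8 and from day 8 to day 12 in colon, the medians over members were −0.04 and 0.12, and 0 members and 0 of all 11842 genes were called (0%) by edgeR, as also by DESeq2 and limma. At an unadjusted p under 0.05 there were 1 member and 0 members. From day 4 to day 8 in ileum, where 85 genes (0.718%) were called higher and 527 (4.45%) lower, the median of members was 0.40 with 70 of 79 above 0 and 28 at an unadjusted p under 0.05, and 0 passed by edgeR or limma and 6 by DESeq2. Without ileum day 8 replicate 1, the library with the lowest share on that day, 11 passed. From day 8 to day 12 the median was −0.29, with 69 of 79 below 0 and 17 at an unadjusted p under 0.05, and by edgeR, DESeq2 and limma 0 members were called. The shares in the 4 ileal libraries of day 8, in the order given above, stood beside sums of epithelial markers of 54334, 61051, 103406 and 70428 normalized reads, whose part in the result was not tested.

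Colon was then set against ileum on each day. On day 4 the median was 0.45 over members and −0.04 over all genes, with 75 of 79 above 0. By edgeR and limma 0 members were called and by DESeq2 5, with 19 at an unadjusted p under 0.05, and 0.524% of all genes were called higher in colon and 2.66% lower. With the experiment as a replicate block 1 was called, without ileum day 4 replicate 2 the number was 6, without replicate 3 it was 1, and without both ileal libraries of experiment 1 it was 5. These 2 libraries had epithelial marker sums of 237177 and 255180, within the range of colon. On day 8, where 16.8% of all genes were higher in colon and 18.3% lower, the median was −0.05 and 0 members were called, with 2 at an unadjusted p under 0.05, 2 called by DESeq2, 1 by limma and 1 by edgeR without ileum day 8 replicate 3 or replicate 4.

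On day 12, 10 members (12.7%) were higher in colon and none lower, where 1808 genes (15.3%) were higher and 2038 (17.2%) lower in all. The median was 0.40 over members and −0.01 over all genes, with 77 of 79 above 0.

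Among the members called, Rps26 gave 0.65 (SE 0.23, adjusted p = 0.0364) with overlapping libraries, and Rpl28 gave 0.64 (SE 0.25, adjusted p = 0.0494). The anchor of the stalk, Rplp0, was at 27199, 21064, 24803 and 24477 in colon and 14135, 15682, 18068 and 14439 in ileum, without overlap, and gave 0.63 (SE 0.22, adjusted p = 0.0278). Rpl7a, Rpl9, Rpl15, Rpl18 and Rpl23a were also called, at 0.52 to 0.63. These calls were unstable. None of the 10 was called in every fit that left out 1 library, 0 were called without colon day 12 replicate 3 and 1 without colon replicate 4, ileum replicate 2 or ileum replicate 4, 3 without ileum replicate 1, 5 without graft replicate 1, and 6 without ileum replicate 3 or colon day 8 replicate 3. There were 17 without colon replicate 2 and 16 without ileum day 8 replicate 4. Within experiment 2 alone 0 were called, with a median of 0.24. In experiment 3, which has 1 library of each, the median was 0.75. Library totals gave 16, limma 18 and DESeq2 19 in place of 10.

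Whether colon and ileum diverged between day 4 and day 12 was asked with an interaction term. The median over members was 0.04 and that over all genes 0.04, and 0 members and 0 genes (0%) were called by edgeR, with 0 members at an unadjusted p under 0.05 and 0 called by DESeq2 or limma.

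In the CX3CR1-DTR transfer, sampled as colon of day 14, members spread in both directions. The kind of recipient, the day and the table in which counts were deposited differed together from the CD11c-DTR transfer, so that these cannot be told apart. The CX3CR1-DTR libraries also differed among themselves. Replicate 1 was below the 5 others for 32 of the 82 members and above them for 23, and for 13 members it was under 0.2 times the median of the group, which held for no member in any other library. Replicate 5 was above all others for 50 members. Results are therefore given with and without replicate 1. The comparison used a separate fit of the graft, colon of day 12 and these 6 libraries over 11751 genes.

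Against the graft, 19 of 79 members (24.1%) were higher and 46 (58.2%) lower, where 39.5% of all genes were higher and 35.9% lower. The median was −1.48 over members and 0.14 over all genes, and values ran from −7.25 to 2.62. Scaled to library totals, 12 were higher and 50 lower and the median of all genes was −0.15, and limma gave 12 and 51. Without replicate 1, 20 were higher, and over all fits that left out a library 13 to 20 were higher and 44 to 49 lower. Against colon of day 12, 7 members (8.86%) were higher and 55 (69.6%) lower, with 25.3% and 35.5% of all genes, and a median of −2.22 against −0.11. The 7 became 1 without colon day 12 replicate 2.

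At the low end were genes near the limit of detection, where 3 reads corresponded to 7.11 to 24.5 normalized reads. Rpl7, a gene of the large subunit, averaged 4255 ± 915 normalized reads in the graft (SD, n = 3) and 8170 ± 2089 in colon of day 12 (n = 4), but stood at 8.17, 26.4, 6.81, 11.4, 56.9 and 4.55 in the CX3CR1-DTR transfer. Its log2 fold change from the graft was −7.25 (SE 0.48, adjusted p = 6.8e-09). Rps23, a protein of the decoding centre, was between 0 and 52.2 in these libraries and between 3220 and 5033 in the graft, at −6.68 (SE 0.44, adjusted p = 6.41e-09). Without replicate 1 the values of Rpl7 and Rps23 were −7.18 and −6.60.

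Rpl28 stood at 48.3 to 115.8 against 4759 to 6176 in the graft, with −5.89 (SE 0.28, adjusted p = 4.08e-10) and −5.97 without replicate 1. Rpl39, the member with the largest difference from the graft in the CD11c-DTR transfer, was at 32.7, 13.2, 20.4, 25.6, 99.6 and 13.7 here, below every graft library, at −4.73 from the graft (SE 0.51, adjusted p = 1.15e-06) and −6.98 from colon of day 12 (SE 0.53, adjusted p = 8.92e-08).

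At the high end were Rps27l, Rpl29 and Rplp1. Rps27l was at 147 in replicate 1 and at 2772, 4367, 3159, 5953 and 3618 in the others, with 2.62 (SE 0.71, adjusted p = 0.00387) over all 6 libraries and 2.77 (SE 0.33, adjusted p = 1.76e-06) without replicate 1. Rpl29 was at 10551 to 21508 normalized reads, above all graft libraries, at 2.29 (SE 0.28, adjusted p = 4.56e-06). Rplp1 was at 63165 to 86671, at 1.93 (SE 0.23, adjusted p = 2.46e-06), and also exceeded colon of day 12 at 0.70 (SE 0.19, adjusted p = 0.00542).

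Fold changes of the stalk genes lay further apart here, again without a test of the difference. As given above, reads of Rplp2 can be lost or assigned to a copy. Rplp2 was at 1128 to 1600 against 11692 to 14409 in the graft, with −2.95 (SE 0.19, adjusted p = 4.73e-09), while reads on its copy Rplp2-ps1 were higher, at 56066 ± 18289 (SD, n = 6) and 1.15 (SE 0.26, adjusted p = 0.000942). Rplp0 was at 0.48 from the graft (SE 0.20, adjusted p = 0.042) and at 0.03 from colon of day 12, where it did not pass. Rpsa, at 0.58 (SE 0.28, adjusted p = 0.0707), did not pass.

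Rps20 and Rpl30 depended on replicate 1. Rps20 stood at 343 in that library and at 9400 to 24483 in the other 5, and gave 1.46 (SE 0.75, adjusted p = 0.0883) with it and 1.62 (SE 0.38, adjusted p = 0.00108) without it. Rpl30 stood at 49.0 and at 909 to 2726, and gave 1.21 (SE 0.69, adjusted p = 0.128) and 1.37 (SE 0.45, adjusted p = 0.0108). Rps4l, which was higher than in colon of day 12 at 1.22 (SE 0.48, adjusted p = 0.0379), lost this at 0.88 (SE 0.39, adjusted p = 0.0605), and Rps27l passed there only without it, at 1.11 (SE 0.27, adjusted p = 0.00206). Rpl14, a large subunit gene, was at 64930 in replicate 1 and at 26909 to 37068 in the others, and its fold change over the graft of 1.70 (SE 0.30, adjusted p = 0.000118) became 1.35.

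According to the study's methods only uniquely mapping reads were counted, and members were therefore also described by how much of their 3′ end is repeated in the genome. Some members nonetheless had nearly the same values as a copy. In colon of day 4, Rpl34 and Rpl34-ps1 both gave 0.40 (SE 0.30), and Rps27 and Rps27rt both gave 0.42 (SE 0.49). Whether the same reads were counted for a member and its copy was not tested. For 74 members the last 300 bases of the transcript could be cut into 32-base words, and each word was looked up in the rest of mm9. In 17 members every word occurred elsewhere, in 32 over 50% but not all, in 13 up to 50%, and in 12 none. In the comparison of the CX3CR1-DTR transfer with the graft, all 17 members with every word repeated were lower, at −7.25 to −1.84 with a median of −3.43. Of the 10 tested members with no repeated word, 3 were higher and 6 lower, with a median of −0.61, and of the 31 with over 50% repeated, 10 were higher and 15 lower, with a median of −0.37. The 13 with up to 50% repeated had 4 higher and 4 lower and a median of 0.21, so that fold changes did not fall step by step with the share of repeated words.

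In colon of day 4 the same classes gave medians of 0.67 where every word was repeated and 0.41 where none was, with 8 of 17 and 1 of 10 called higher. Spearman's rho over 71 members between the share of repeated words and the fold change was −0.48 for the CX3CR1-DTR transfer and 0.25 for colon of day 4. It is given as a description, since members share libraries and many have related copies. Among copies outside the rule, Rps19-ps3 was higher in the CX3CR1-DTR transfer at 2.74 (SE 0.33, adjusted p = 3.52e-06) while Rps19 was lower at −1.88 (SE 0.27, adjusted p = 1.84e-05), and Rpl31-ps12 was lower at −4.69 (SE 0.51, adjusted p = 1.04e-06) as was Rpl31 at −3.70 (SE 0.42, adjusted p = 1.74e-06). The read length is not given in the sources used here, and whether it differed between the transfers was not tested.

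**Figure D5:**
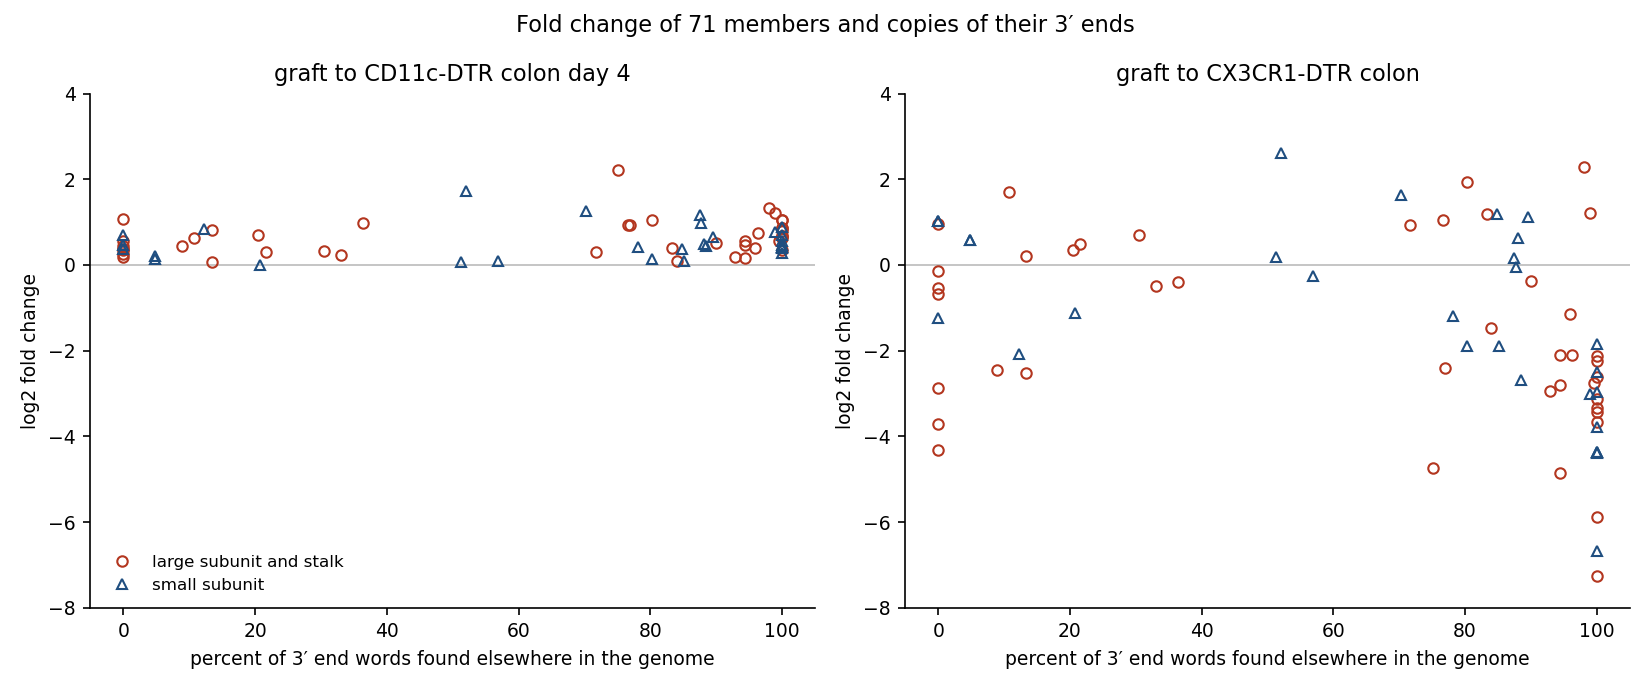
Log2 fold change of 71 members (vertical axis) against the percent of 32-base words in the last 300 bases of the transcript that occur elsewhere in mm9 (horizontal axis), for colon of day 4 and for the CX3CR1-DTR transfer, each against the graft. In the CX3CR1-DTR transfer all 17 members at 100% lie below 0, whereas colon of day 4 shows values above 0 at every percentage.

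Members with and without a run of pyrimidines at the start were set side by side, with no test of the difference. Among the 33 tested members with a run of at least 8 bases of C or T, 14 were higher in colon of day 4 and the median was 0.52, and among the 46 without one 17 were higher and the median was 0.53. In colon of day 12 the counts were 20 of 33 and 25 of 46, and in ileum 5 of 33 and 5 of 46 on day 4 and 6 of 33 and 6 of 46 on day 12. In colon against ileum of day 12, 7 of 33 and 3 of 46 were called. For the CX3CR1-DTR transfer against the graft, 8 of 33 were higher and 17 lower with a median of −1.15, and 11 of 46 higher and 29 lower with a median of −1.88. Among the genes shown at the outset, Rpl39 with its short run and Rpl29 with its long one were both higher in colon.

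Other genes of ribosome production and of translation were followed by fixed lists. Over all genes, 35.9% were higher and 24.5% lower than in the graft in colon of day 4, 37.7% and 24.9% on day 12, 36.2% and 20.5% in ileum of day 4, and 35.9% and 20% on day 12, against which the counts of each list are to be read. Of 78 mitochondrial ribosomal protein genes, 35 were higher and 2 lower than in the graft in colon of day 4, 39 and 2 on day 12, 21 and 4 in ileum of day 4 and 19 and 9 on day 12. In colon against ileum of day 12, 24 were higher and none lower, beside 15.3% and 17.2% of all genes. Mrps6 had the largest value, 4.43 (SE 0.51, adjusted p = 1.28e-07) in colon of day 4, with Mrpl12 at 2.24 (SE 0.30, adjusted p = 1.11e-06), and Mrpl33 was lower in ileum of day 4 at −1.84 (SE 0.25, adjusted p = 1.41e-06).

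Among 20 genes of translation and related factors whose mRNAs are known to carry a TOP tract, 6 were higher and 1 lower in colon on both days, and 2 were higher in ileum with 4 lower on day 4 and 3 on day 12. Eif3e, a subunit of the initiation factor eIF3, was higher in colon of day 4 at 2.28 (SE 0.44, adjusted p = 0.000108), and Nap1l1, a histone chaperone, was lower at −2.28 (SE 0.28, adjusted p = 3.24e-07). The elongation factors Eef1a1 at 0.35 and Eef2 at 0.28, the poly(A)-binding protein Pabpc1 at 0.16 and Tpt1 at 0.53 did not pass in colon of day 4. In the CX3CR1-DTR transfer Tpt1 was lower than in the graft at −5.72 (SE 0.58, adjusted p = 5.91e-07) and Pabpc1 at −3.54 (SE 0.36, adjusted p = 6.24e-07), Eef2 was higher at 1.38 (SE 0.21, adjusted p = 2.51e-05), and Eef1a1 at 1.09 (SE 0.57, adjusted p = 0.0944) did not pass.

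Of 40 ribosome biogenesis factors, 9 were higher and 6 lower in colon of day 4, 11 and 2 on day 12, and 8 and 5 and then 7 and 5 in ileum. Npm1, a nucleolar chaperone, was higher in colon of day 4 at 1.13 (SE 0.36, adjusted p = 0.00942) and in ileum at 1.35 (SE 0.35, adjusted p = 0.00195), and was lower in the CX3CR1-DTR transfer at −5.46 (SE 0.42, adjusted p = 3.12e-08). Tsr1, which acts in the maturation of the small subunit, was at 2.74 (SE 0.28, adjusted p = 1.83e-08) and Tcof1, a factor of ribosomal DNA transcription, at −1.72 (SE 0.30, adjusted p = 2.86e-05) in colon of day 4.

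Of 18 regulators of ribosomal protein synthesis, 3 were higher and 1 lower in colon of day 4, 3 and 3 in colon and in ileum of day 12, and 3 and 2 in ileum of day 4. Eif4ebp1, the translation repressor that mTOR phosphorylates, was lower in all 4 comparisons with the graft, at −2.23, −2.04, −2.12 and −1.79 in colon of days 4 and 12 and ileum of days 4 and 12, with adjusted p-values from 4.55e-07 to 3.94e-06. Mxd1, an antagonist of Myc, was higher at 3.83 (SE 0.60, adjusted p = 9.35e-06) in colon of day 4, while Myc was at 0.56 (SE 0.38, adjusted p = 0.205) and Larp1 at −0.08 (SE 0.19, adjusted p = 0.73). In ileum of day 4 Myc passed at 0.92 (SE 0.37, adjusted p = 0.0369). Of 19 proliferation genes, all were lower than in the graft on day 4 in colon and in ileum, and 17 and 18 on day 12.

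Rpl22l1, the paralog of Rpl22 that falls outside the symbol rule, was higher than in the graft in colon of day 4 at 2.99 (SE 0.51, adjusted p = 2.63e-05) and in ileum at 2.85 (SE 0.50, adjusted p = 3.88e-05), and the values on day 12 were 3.10 and 2.97. Rpl22 did not pass in these comparisons. In the CX3CR1-DTR transfer Rpl22l1 was lower than in the graft at −2.16 (SE 0.77, adjusted p = 0.0196), and Rpl22 was higher at 0.96 (SE 0.35, adjusted p = 0.0231). Of the 4 ribosomal protein-like genes outside the rule that were listed, 1 was higher and 1 lower than in the graft in colon of day 4, the latter being Rpl7l1 at −0.45 (SE 0.20, adjusted p = 0.0495).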

How the data were processed

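Libraries were made after a variant of the MARS-seq protocol, so that reads come from 3′ ends of poly(A) RNA. By the study's methods, reads were mapped with HISAT 0.1.6 to mm9, and uniquely mapping reads were counted over exons on the sense strand with HOMER. The values deposited are raw counts per gene, with 1 transcript listed per gene. Read length and any collapsing of molecular identifiers are not given in the sources used here. 52 columns without a sample name in the labels were not used.

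Genes with at least 50 reads per 10000000 mapped reads in at least 3 libraries entered edgeR 4.0.16, run under R 4.3.3 (quasi-likelihood test after TMM scaling, Benjamini-Hochberg adjustment over all genes tested, adjusted p under 0.05), in 1 fit of 25 libraries. The CX3CR1-DTR transfer was fitted with the graft and colon of day 12, with the minimum set on reads on genes. SE values are the log2 fold change divided by the root of F. limma 3.58.1 (pseudocount 50) and DESeq2 1.42.0 were alternatives. The fit was tested on simulated counts. Share, repeated words and start windows were computed in Python 3.11.15. None of the 51 pairs of libraries within a group agreed within sampling noise, and pairs across groups were not checked.

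Genes named with values are, in each comparison, the 3 members called with the largest rise and fall, the stalk genes, Rpsa, paralogs with a final l and the member each resembles, Rpl10, Rpl22, Rpl39 and Rps6, and from each list a few fixed genes and up to 3 called with the largest change. Some genes that this rule names are not reported here. Rpl5, Rpl11, Rpl27, Rpl31, Rpl34, Rps19 and the near copies were chosen after their values were seen. Members, lists and tests were chosen with earlier results of these data known. Replicate 1 of colon day 8 was left out, the only library of that group from experiment 1, since the study lists fewer libraries of it than the labels without saying which. Experiments 1 to 3 come from dates in the sample titles, with 1 date taken as a slip of the year. Deviations from the group mean were correlated between libraries of different groups. The median was 0.0241 over 96 pairs of the same experiment (−0.462 to 0.513) and −0.014 over 171 pairs of different experiments (−0.419 to 0.375). Pairs within a group did not enter, and an effect of the experiment was not tested by these medians.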

Additional observations from a re-analysis of the deposited data

Results flagged for a closer look

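For named members and the summed share, the highest or lowest library of a group of 4 to 10 was called far from the others by Dixon's test, which chance passes in about 1 of 20 groups, and 14 of 125 groups (11.2%) passed. In colon of day 12, Rps27l was low in replicate 1, at 1031.5 normalized reads. In ileum of day 4, Rplp1 and Rplp2 were high in replicate 3, at 51451.7 and 16086.1, and in ileum of day 8 Rplp2 was low in replicate 1, at 10159.7. Replicate 3 of ileum day 12 was high in the share of reads on all members, at 8.14%, and for Rps26, Rps27 and Rpsa, at 10569.4, 8708.2 and 12675.4, and replicate 1 of that group was low for Rps27l, at 784.0. In the CX3CR1-DTR transfer replicate 1 was high for Rpl14, at 64930.4, and replicate 5 for Rpl29, Rpl30, Rpl32l and Rpl39, at 21507.7, 2726.4, 2273.6 and 99.6 normalized reads.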

How the results depend on the processing

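Of 521 counts and shares under an alternative, 59 moved by more than the limits set and 462 did not. Experiment 2 alone gave 2, 7, 1 and 2 members called in colon of days 4 and 12 and ileum of days 4 and 12 against the graft, and 0 in colon against ileum of day 12. Experiment 3 alone gave 1, 3 and 0 in colon of days 4 and 12 and ileum of day 12, and 0 in colon against ileum of day 12; fewer libraries entered these fits, and those groups had 1 library each in experiment 3. With no filter on low counts, ileum of days 4 and 12 gave 6 and 7, and colon against ileum of day 12 gave 3. Without the ileal libraries of experiment 1 on day 4, ileum of day 4 and colon against ileum of day 4 gave 5 each. DESeq2 gave 6 from day 4 to 8 in ileum and 5, 2 and 19 in colon against ileum of days 4, 8 and 12, limma gave 1 and 18 on days 8 and 12, and library totals gave 16 on day 12. With experiment as a replicate block 1 member was called in colon against ileum of day 4, and the block moved no other count of members by over 1.5 times. The cause of these shifts was not tested beyond the number of libraries. Per mapped read, the share was 4.6%, 5.08%, 5.29%, 5.27%, 3.56%, 4.34% and 3.66% in the graft, colon of days 4, 8 and 12 and ileum of days 4, 8 and 12, and without the 10 most abundant other genes it was 8.67% in colon of day 8 and 6.97% in ileum of day 4.

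With each library left out in turn, members called against the graft ranged from 17 to 37 and 25 to 47 in colon of days 4 and 12 and from 4 to 12 and 5 to 15 in ileum. The range was 0 to 11 from day 4 to 8 in ileum, and 0 to 6, 0 to 1 and 0 to 17 in colon against ileum of days 4, 8 and 12. For the CX3CR1-DTR transfer it was 13 to 20 higher against the graft and 1 to 9 against colon of day 12. Among 24 reversed values of single genes, each of a fold change that had not passed, Rplp2 in ileum of day 4 was −0.026 with library totals, −0.0007 with no filter, −0.038 with limma, −0.23 without the ileal libraries of experiment 1, −0.048 in experiment 2 and −0.17 to 0.17 with 1 library left out. Rpsa there was −0.087 without the libraries of experiment 1 and −0.06 to 0.22 with 1 library left out, Rps6 was −0.027 in experiment 2, and Rpl22 was −0.032 to 0.23 with 1 library left out. In ileum of day 12, Rpl22 was 0.0012 and 0.051 in experiments 2 and 3 and −0.16 to 0.10 with 1 library left out, Rplp2 was 0.0022 with the block, 0.17 in experiment 2 and −0.18 to 0.056 with 1 library left out, Rps6 was −0.08 in experiment 3, and Rpsa was 0.31 in experiment 2 and −0.21 to 0.073 with 1 library left out. Counts near the floor limit Rpl3l, Rpl39l and, in the CX3CR1-DTR transfer, Rpl7, Rps23 and Rpl39.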
